A study of Mus musculus with 6 samples.

Results

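Some places between annotated genes gave rise to several assembled transcripts each, and these multi-transcript intergenic loci are described here. A locus is the genomic interval that the assembly printed beside a transcript, and a transcript was taken as intergenic when it carried the class code u, given to assembled transcripts that overlap no transcript of the annotation used for the assembly. Loci were kept when at least 4 rows of the table shared their interval and when they lay on one of the 19 autosomes. This rule found 319 of the 15007 loci in the table, and they held 1828 of its 18573 newly assembled transcripts. The rule read no expression value, but a row exists only where reads supported an assembled transcript. The number of rows at a locus is therefore not independent of its expression in either cell type.

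The transcripts came from mouse spermatogonial stem cells (SSCs), sorted from testis, and from female germline stem cells (FGSCs), sorted from ovary, with 3 libraries per cell type. Per the labels the mice were C57BL/6, SSC donors being aged 3 to 5 days and FGSC donors 6 days, whereas the methods of the study give the ages the other way round and name Ddx4-Cre; mT/mG mice. In those mice the promoter of Ddx4, a gene expressed in germ cells, drives the Cre recombinase that turns on GFP, and GFP-positive cells from pooled animals were sorted, so the cells are those in which that promoter had been active. Each transcript has 1 FPKM value for SSCs and 1 for FGSCs (fragments per kilobase of transcript, scaled to sequencing depth), which the authors computed over the 3 libraries. These values allow no SD and no test of a difference here, the authors' own test results were not used, and the number of reads behind a transcript is unknown. Markers of the cell types are mRNAs and were not analysed here, so the labels of the 2 cell types could not be checked against them.

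SSCs sustain sperm production by dividing into new stem cells and into spermatogonia that differentiate. FGSCs are cells of the ovary that have been isolated on the basis of germ cell markers and that proliferate in culture. Long noncoding RNAs from intergenic DNA are often spliced into several isoforms from one promoter, end at ordinary polyadenylation signals, and tend to be expressed in fewer tissues and at lower levels than mRNAs. An assembly can also break one such RNA, or the untranslated end of a neighbouring mRNA, into several separate pieces when read coverage is thin, and it then gives each piece a gene identifier of its own.

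At 60 of the 319 loci all transcripts carried a single gene identifier, and at the other 259 they carried several, up to 29 at one locus. At 136 loci every transcript had its own identifier. The number of intergenic transcripts per locus ran from 1 to 34 with a median of 5, and 30 loci held 10 or more. The 15 loci with 1 intergenic transcript and the 27 with 2 or 3 (11 and 16) reached 4 rows only through transcripts of other classes. Such transcripts made up 202 rows at 78 of the loci, namely 103 antisense to an annotated exon, 54 sharing a splice junction with an annotated transcript and 45 overlapping an annotated exon in another way. They were not counted as members. The loci were between 2711 and 1393132 bp long with a median of 28112 bp, 33 exceeded 100 kb and 46 were under 10 kb. The interval is that of the whole bundle of overlapping transcripts, so it can be wider than the intergenic transcripts in it and can lie over annotated genes.

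The ends of these loci were read from the mm10 sequence, where a transcript that ends at the edge would carry its polyadenylation signal. The hexamer AATAAA, the core of the polyadenylation signal, was searched within 50 bases of each edge on the strand on which a transcript would end there. It was found at 1 edge or both of 54 loci (16.9%), against 8.97% of all 13610 intergenic loci and 8.55% of the 12576 intergenic loci with 1 row. On the opposite strand, which serves as a baseline for base composition, the hexamer was found at 7.21% of the multi-transcript loci and 7.11% of all intergenic loci. Protein-coding genes lay under 31.03% of the multi-transcript loci, against 10.04% of the autosomal intergenic loci with 1 row. Edges with the hexamer include some of loci over the coding genes Csad, Zfp654 and Zfand6. The shares were not split by annotation, and the part of annotated mRNA ends in the difference was not tested. The 4 examples lie over no protein-coding gene and were picked after their values were seen, 2 higher in SSCs and 2 higher in FGSCs. The strand of the transcripts was not read, so the strand given is that of the match. Each sequence is printed 5′ to 3′ on that strand, with AATAAA in capitals.
chr8:96371356-96371405, minus strand, Gm32122 locus: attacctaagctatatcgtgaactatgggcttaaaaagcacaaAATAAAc
chr10:100667572-100667621, minus strand, Gm35722 locus: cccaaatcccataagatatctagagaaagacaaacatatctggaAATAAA
chr3:138711534-138711583, minus strand, 4930425O10Rik locus: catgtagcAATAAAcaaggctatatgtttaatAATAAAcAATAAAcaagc
chr15:62463496-62463545, minus strand, locus over no gene: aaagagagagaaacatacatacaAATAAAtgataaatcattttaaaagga
The 9 transcripts of the Gm32122 locus summed to 5.29 FPKM in SSCs and were all listed at 0 in FGSCs. The 9 of the Gm35722 locus summed to 5.83 FPKM in SSCs against 0.204 in FGSCs. The 10 transcripts of the 4930425O10Rik locus summed to 0.116 FPKM in SSCs against 5.87 in FGSCs, and the 7 on chromosome 15 were listed at 0 in SSCs and summed to 2.24 FPKM in FGSCs. A match says only that these letters lie in the window, and its distance from the edge was not used. The hexamer ended 1 base from the edge at the Gm32122 locus, 0 at the Gm35722 locus and 21 at the chromosome 15 locus.

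At the other end, 38 of the 319 loci had a RefSeq gene start within 100 bp of an edge with the gene reading into the locus. The same count was not taken over all intergenic loci, so it has no background share and is not read as a trait of these loci. Of the 38 loci, 10 (26.3%) were at least 2-fold higher in SSCs and 14 (36.8%) at least 2-fold higher in FGSCs. Beside them stand 18.8% and 55.5% of all 319 loci and 16.2% and 20.4% of all intergenic loci, in the same order. The promoters of 4 of them, again picked after the values were seen and from loci over no protein-coding gene, are given from 250 bases before to 50 bases after the start (RefSeq, GRCm38.p6), with each CpG in capitals.
2400006E01Rik, chr3:41528425-41528724, minus strand: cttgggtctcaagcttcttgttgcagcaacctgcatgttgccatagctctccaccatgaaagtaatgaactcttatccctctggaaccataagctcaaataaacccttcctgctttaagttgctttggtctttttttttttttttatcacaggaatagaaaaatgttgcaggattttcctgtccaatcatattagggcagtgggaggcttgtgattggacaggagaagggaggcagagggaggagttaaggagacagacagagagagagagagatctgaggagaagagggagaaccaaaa
Gm33616, chr9:106418301-106418600, minus strand: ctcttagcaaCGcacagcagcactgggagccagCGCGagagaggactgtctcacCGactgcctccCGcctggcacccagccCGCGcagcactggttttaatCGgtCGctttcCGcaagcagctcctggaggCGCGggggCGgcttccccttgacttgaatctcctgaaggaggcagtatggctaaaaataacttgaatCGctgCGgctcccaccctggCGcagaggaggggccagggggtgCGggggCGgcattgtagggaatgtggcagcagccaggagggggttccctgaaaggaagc
Gm39767, chr2:21964118-21964417, minus strand: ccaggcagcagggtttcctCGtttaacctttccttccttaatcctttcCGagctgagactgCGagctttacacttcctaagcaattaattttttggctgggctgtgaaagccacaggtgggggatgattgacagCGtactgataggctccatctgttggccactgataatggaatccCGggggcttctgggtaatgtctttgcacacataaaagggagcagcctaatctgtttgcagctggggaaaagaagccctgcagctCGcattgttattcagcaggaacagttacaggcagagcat
Gm34917, chr17:44105534-44105833, plus strand: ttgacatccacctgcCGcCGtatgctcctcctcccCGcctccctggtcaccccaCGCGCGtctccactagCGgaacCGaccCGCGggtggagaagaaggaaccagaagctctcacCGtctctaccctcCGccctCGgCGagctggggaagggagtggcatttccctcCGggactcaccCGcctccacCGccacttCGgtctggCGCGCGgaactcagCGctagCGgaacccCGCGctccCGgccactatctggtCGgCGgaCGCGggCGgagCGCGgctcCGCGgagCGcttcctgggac
The locus behind 2400006E01Rik summed to 8.31 FPKM in SSCs against 0.0725 in FGSCs, and its promoter held 0 CpG, as few as 5.43% of the 32851 RefSeq promoters. The Gm33616 locus summed to 5.74 FPKM in SSCs against 0.0821 in FGSCs, with 18 CpG in the promoter. The Gm39767 locus summed to 0.0153 FPKM in SSCs against 25.2 in FGSCs with 6 CpG, and the Gm34917 locus to 0.359 FPKM in SSCs against 5.48 in FGSCs with 36 CpG. The median over all RefSeq promoters was 7 CpG. As the 4 were picked by hand, they say nothing of promoters at such loci in general.

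The loci took a larger share of the summed FPKM in FGSCs than in SSCs. Their 1828 transcripts summed to 747 FPKM in SSCs against 1678 in FGSCs, which was 4.81% of all FPKM of the table in SSCs and 12.4% in FGSCs. Per locus, the sum had a median of 0.796 FPKM in SSCs against 2.49 in FGSCs, and 10 loci passed 10 FPKM in SSCs against 37 in FGSCs. A sum above 1 FPKM was reached in both cell types at 109 loci, in SSCs alone at 42, in FGSCs alone at 154 and in neither at 14. In SSCs 502 member transcripts (27.5%) were listed at 0, against 102 (5.58%) in FGSCs, and all transcripts of the table were listed at 0 in 18.9% of cases in SSCs and in 7.16% in FGSCs. The 42 loci listed at 0 throughout in SSCs summed to between 0.342 and 38.3 FPKM in FGSCs, and 7 loci were listed at 0 in FGSCs. In bulk samples such as these, fewer cells of a type and less RNA per cell cannot be told apart.

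Differences were taken as log2(summed FPKM + 0.5) in SSCs minus the same in FGSCs, a scale that shrinks changes at low loci, and a locus past 2-fold on this scale was counted as higher in one cell type. By this count 60 of the 319 loci (18.8%) were higher in SSCs and 177 (55.5%) higher in FGSCs, with 82 within 2-fold. Over all 13610 intergenic loci 16.2% were higher in SSCs and 20.4% higher in FGSCs. The share higher in FGSCs was thus above the background, and the share higher in SSCs differed from it by less. The median difference was −1.35 over the 319 loci and −0.47 over all intergenic loci. Past 16-fold, 2 loci were higher in SSCs and 27 higher in FGSCs. Sums grow with the number of transcripts and leave the range where the pseudocount of 0.5 holds differences down, so the same shares were taken over loci with at least 1 FPKM in one cell type. Of 305 such multi-transcript loci 19.02% were higher in SSCs and 57.0% in FGSCs. Of 3289 such intergenic loci 39.6% were higher in SSCs and 36.3% in FGSCs. With that limit the share higher in SSCs lay below the background. At a limit of 4-fold it lay above it, at 9.72% of the 319 loci against 4.67% of all intergenic loci, while 34.2% of the 319 were higher in FGSCs against 3.24% of all. The side of the background on which the SSC share fell therefore changed with the setting, and that of the FGSC share did not under any pseudocount, filter, scaling or fold limit tried.

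Counted as single transcripts, the members were above the background toward FGSCs and below it toward SSCs. Of the 1828 member transcripts 212 (11.6%) were at least 2-fold higher in SSCs, against 15.0% of all 18573 transcripts, and 608 (33.3%) at least 2-fold higher in FGSCs, against 20.1% of all. The other 1008 lay within 2-fold. Past 4-fold the counts were 29 in SSCs (1.59%, with 3.796% over all transcripts) and 154 in FGSCs (8.42%, with 2.81% over all). The median SSC value of member transcripts was 0.106 FPKM, below the 0.251 FPKM of all transcripts, whereas their median FGSC value of 0.509 FPKM was above the 0.442 FPKM of all. The distance between the cell types at these loci thus came with lower values in SSCs and higher values in FGSCs than in the table as a whole. On the log2 scale the median of all transcripts was itself −0.44, and multiplying the SSC values so that the medians of the 2 cell types became equal moved it to −0.16. On that scaling 86 loci were higher in SSCs and 152 in FGSCs, and 386 transcripts higher in SSCs and 538 in FGSCs. The background turned toward SSCs with it, to 27.3% of all intergenic loci higher in SSCs and 16.6% in FGSCs, against 27.0% and 47.6% of the multi-transcript loci, and to 26.0% and 16.4% of all transcripts, against 21.1% and 29.4% of the members.

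**Figure D1:**
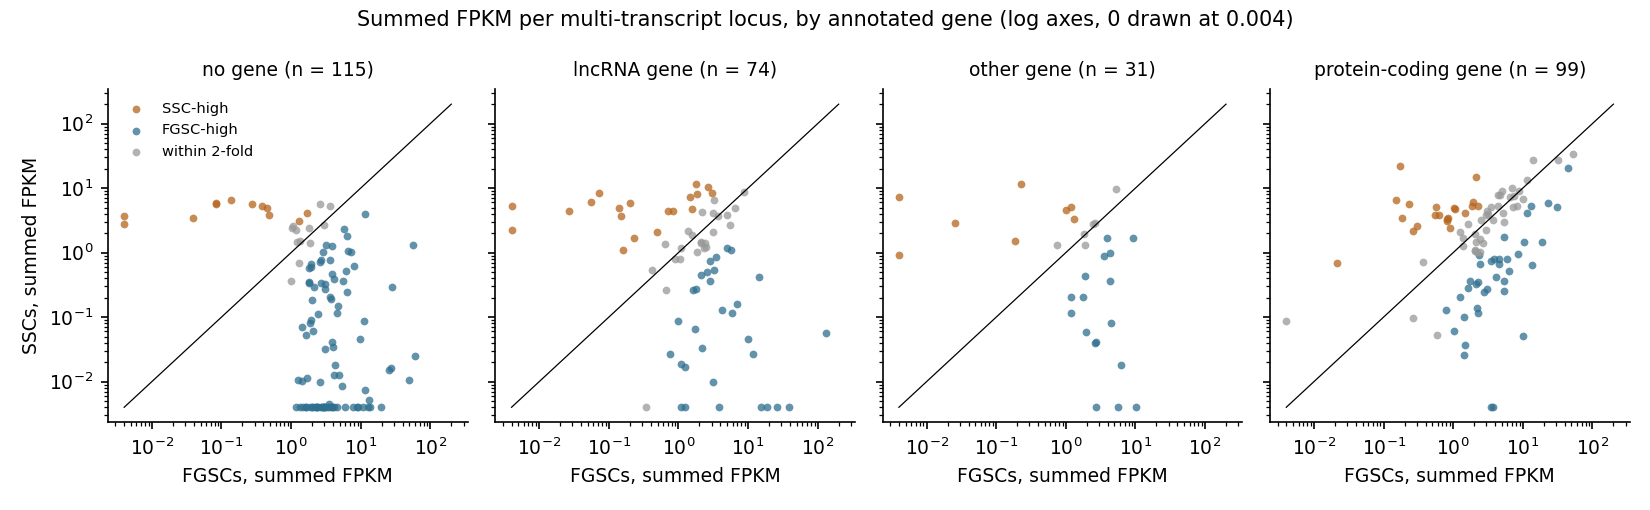
Summed FPKM of each of the 319 loci in SSCs (vertical axis) against FGSCs (horizontal axis), both axes logarithmic with 0 drawn at 0.004, split by the kind of GENCODE gene under the locus. Points are loci, coloured by whether the sum was at least 2-fold higher in SSCs, in FGSCs or within 2-fold, and the line marks equal values. Loci over no GENCODE gene, 48 of which lay over a RefSeq gene, lie mostly below the line, with 91 of 115 higher in FGSCs. Those over protein-coding genes gather nearer to it, with 38 of 99 higher in FGSCs.

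The share of loci higher in FGSCs went with the number of rows at a locus. It was 17.9% of the 12115 autosomal intergenic loci with 1 row, 39.7% of those with 2 rows and 51.1% of those with 3. From there it was 55.6% at 4 rows, 59.8% at 5 or 6, 41.3% at 7 to 9 and 66.7% at 10 or more. The share higher in SSCs stayed between 14.7% and 18.95% up to 5 or 6 rows, and was 30.2% at 7 to 9 rows and 8.33% at 10 or more. Loci just inside the rule, with exactly 4 rows, numbered 108 and had a median difference of −1.28, and the 184 just outside it, with 3 rows, had a median of −1.05. No step marked the boundary of 4 rows. Length, sequence and FGSC sum moved along with the row count. The median length was 0.903 kb at 1 row, 15.98 kb at 4 rows and 52.9 kb at 10 or more. The median FGSC sum was 0.429, 1.91 and 7.45 FPKM in the same order. At low sums the pseudocount of 0.5 holds differences down. With a pseudocount of 0.1, 47.7% of the 12576 1-row loci on all chromosomes were higher in FGSCs, against 57.7% of the 319 loci. Of the 2472 1-row loci with at least 1 FPKM in one cell type, 31.6% were higher in FGSCs and 45.9% in SSCs. The part of length, sequence and sum in the difference was not tested.

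**Figure D2:**
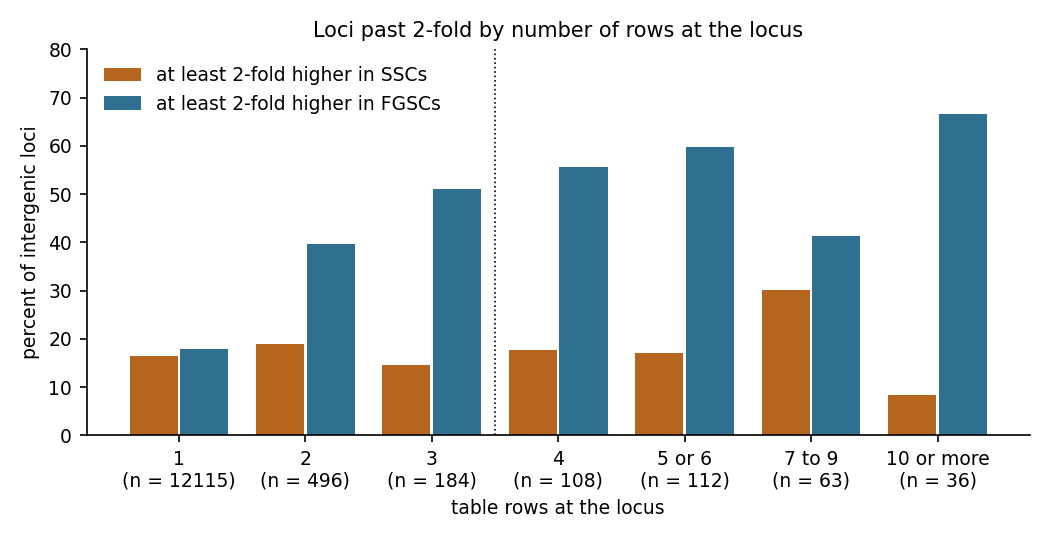
Percent of autosomal intergenic loci at least 2-fold higher in SSCs (left bar of each pair) and in FGSCs (right bar), by the number of table rows at the locus, with the number of loci under each pair. The dotted line separates loci with fewer than 4 rows from those with 4 or more. The FGSC bar stands at 17.9% for 1 row and 66.7% for 10 or more. The median FGSC sum also rose, from 0.429 FPKM at 1 row to 7.45 FPKM at 10 or more.

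What the mouse annotation (GENCODE M21) places under a locus divided the loci further. Over no GENCODE gene, which is what over no gene means in this text, lay 115 loci with 700 transcripts. Of these loci 12 (10.4%) were higher in SSCs and 91 (79.1%) in FGSCs. Intergenic loci with 1 row and no gene were higher in FGSCs in 18.6% of cases, close to the background. The sums of 1-row loci are low, where the pseudocount holds differences down. In SSCs 31 of the 115 loci were listed at 0 throughout and 48.7% of their transcripts were listed at 0, with medians per locus of 0.112 FPKM in SSCs against 2.90 in FGSCs. At 97 of them all transcripts went one way. Of the 115, 48 lay over a RefSeq gene and 67 over none, and of these 67 loci 7 were higher in SSCs and 56 in FGSCs.

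Over lncRNA genes lay 74 loci, 19 higher in SSCs and 31 in FGSCs, and over other genes, such as pseudogenes and small RNA genes, lay 31, with 8 higher in SSCs and 17 in FGSCs. The 99 loci over protein-coding genes included 21 higher in SSCs and 38 in FGSCs. They summed to 404 FPKM in SSCs against 530 in FGSCs, and their medians were 2.13 FPKM in SSCs against 2.43 in FGSCs. Intergenic loci with 1 row over a lncRNA gene were higher in SSCs in 17.7% of cases and in FGSCs in 23.0%, those over other genes in 15.6% and 11.2%, and those over a coding gene in 18.1% and 10.4%, in the same order. Toward FGSCs the multi-transcript loci, at 41.9% over lncRNA genes, 54.8% over other genes and 38.4% over coding genes, were above the 1-row loci of their kind. Summed FPKM was not matched in this comparison. Without these 99 loci 39 of 220 were higher in SSCs and 139 (63.2%) in FGSCs. Transcripts called intergenic within such an interval can be unannotated ends of the coding gene or separate RNAs, and the values do not tell them apart.

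Among the loci over no gene, the one with the most transcripts of all lay at chr17:93538528-93647268, 332 kb from the nearest coding gene, Adcyap1, which encodes the neuropeptide PACAP. Its 34 transcripts carried 29 gene identifiers. In SSCs they lay between 0 and 0.625 FPKM with a median of 0.0119 FPKM and 14 listed at 0. In FGSCs they lay between 0.217 and 5.62 FPKM with a median of 1.17 FPKM. All 34 were higher in FGSCs and the largest, TCONS_00064205, held 9.98% of the sum of 56.3 FPKM, so that no transcript carried the locus. The locus at chr2:21882737-21964174, whose end meets the start of the RefSeq gene Gm39767 printed above, was similar in build. Of its 26 transcripts 24 were listed at 0 in SSCs, while in FGSCs they lay between 0.401 and 2.06 FPKM with a median of 0.932 FPKM. Its dominant transcript in FGSCs, TCONS_00084855, held 8.16% of the sum.

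A further 3 loci over no gene had high sums in FGSCs and almost none in SSCs. At chr6:95841192-95923105, 122 kb from Suclg2, a gene of the citric acid cycle, 12 transcripts with 12 identifiers summed to 0.0253 FPKM in SSCs against 60.5 in FGSCs. In SSCs 10 of them were listed at 0, and in FGSCs the lowest stood at 2.06, the median at 4.88 and the highest at 9.54 FPKM. The 2 sets of values did not overlap, at a locus named for the size of its difference. At chr8:98363267-98390797, 634 kb from the cadherin gene Cdh8, 10 transcripts summed to 0.0106 FPKM in SSCs against 49.996 in FGSCs, with FGSC values from 0.733 to 8.91 FPKM. At chr2:10639894-10651833, 44.6 kb from Sfmbt2, an imprinted Polycomb-group gene, the 4 transcripts had 0, 0, 0.0161 and 0 FPKM in SSCs and 6.09, 5.95, 6.51 and 8.71 FPKM in FGSCs. The log2 difference of this small locus was −5.75.

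The locus with the highest FGSC sum lay at chr14:105401257-105433415 over the lncRNA gene 5430440P10Rik, 92.0 kb from Ndfip2, which encodes an adaptor of ubiquitin ligases. Its 14 transcripts summed to 0.0571 FPKM in SSCs against 133 in FGSCs, a log2 difference of −7.90. None passed 0.0217 FPKM in SSCs, and 8 were listed at 0. In FGSCs they lay between 0.817 and 59.1 FPKM, with a median of 4.55 FPKM. Unlike at the loci on chromosome 17 and chromosome 2 described first, 1 transcript, TCONS_00046173, made up 44.5% of the sum. The next by value, TCONS_00046174, stood at 20.9 FPKM. At chr8:90734578-90770953, over the lncRNA genes Gm35850 and Gm35963, all 11 transcripts were listed at 0 in SSCs and lay between 2.59 and 5.96 FPKM in FGSCs, summing to 38.3 FPKM. No fold is given against a cell type listed at 0.

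**Figure D3:**
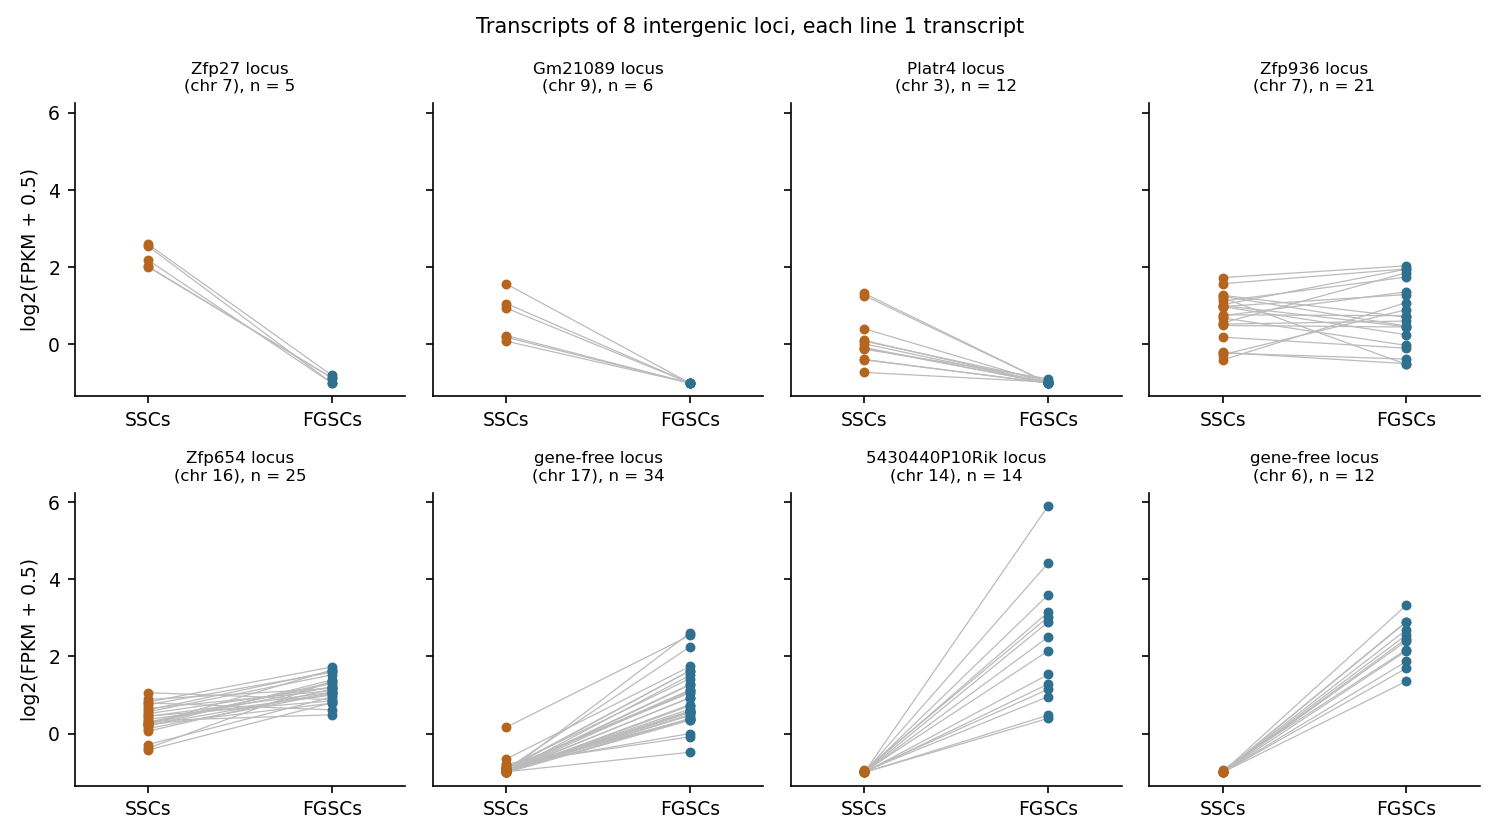
log2(FPKM + 0.5) of every intergenic transcript at 8 loci in SSCs (left of each panel) and FGSCs (right), with a line joining the 2 values of a transcript. The Zfp27, Gm21089 and Platr4 loci are higher in SSCs in all their transcripts, the Zfp936 locus is mixed with 11 of 21 higher in SSCs, and the loci on chromosomes 17, 14 and 6 are higher in FGSCs in all 34, 14 and 12 transcripts.

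Loci higher in SSCs were fewer, and their highest sums were lower. Their SSC sums had a median of 4.60 FPKM with a maximum of 22.0 FPKM, while the FGSC sums of the loci higher in FGSCs had a median of 3.49 FPKM with a maximum of 133 FPKM. The largest log2 difference toward SSCs, 5.06, was measured at chr7:29877643-29906572 over Zfp27, a gene for a zinc finger protein. Its 5 transcripts, each with an identifier of its own, had 5.54, 5.33, 4.05, 3.56 and 3.52 FPKM in SSCs and, in the same order, 0.0740, 0, 0, 0.0477 and 0.0507 FPKM in FGSCs. The 2 sets lay far apart, which goes with naming the locus for the size of its difference. The largest transcript, TCONS_00132420, held 25.2% of the sum of 22.0 FPKM in SSCs.

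Pseudogene loci followed. At chr17:37995849-38014752 over Gm20541, 36.1 kb from the olfactory receptor gene Olfr129, 6 transcripts lay between 0.636 and 5.02 FPKM in SSCs and reached at most 0.0738 FPKM in FGSCs, giving sums of 11.6 FPKM in SSCs against 0.230 in FGSCs. At chr9:6573876-6601292 over Gm21089 the 6 transcripts had 2.46, 1.59, 1.42, 0.675, 0.637 and 0.561 FPKM in SSCs and were all listed at 0 in FGSCs. Sequence of pseudogenes recurs elsewhere in the genome, and reads from other copies can be assigned to such a locus.

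The lncRNA loci completed the loci with the largest difference toward SSCs. At chr3:41454589-41528466 lie Platr4, a lncRNA gene named for its expression in pluripotent cells, and 2400006E01Rik, and the 12 transcripts there lay between 0.106 and 1.999 FPKM in SSCs with a median of 0.479 FPKM, against at most 0.0408 FPKM in FGSCs. All 12 were higher in SSCs and TCONS_00096788 held 24.1% of the SSC sum of 8.31 FPKM. At chr9:59191384-59234951 over Gm33053 the 9 transcripts lay between 0.0956 and 1.16 FPKM in SSCs and at or below 0.0343 FPKM in FGSCs, for sums of 6.18 FPKM in SSCs against 0.0550 in FGSCs. The values of the 2 cell types did not overlap at either locus, and both had been named for the size of their difference. Only 1 of the 10 loci with the most transcripts was higher in SSCs, the one at chr12:27067838-27114489 over the lncRNA gene Gm9866, 220 kb from Sox11. Of its 16 transcripts 13 were higher in SSCs and 3 in FGSCs, and they summed to 10.4 FPKM in SSCs against 2.66 in FGSCs.

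The large loci over coding genes ranged from mixed to one-sided. At chr16:64780351-64859529, over Zfp654 and Cggbp1, genes for a zinc finger protein and a protein that binds CGG repeats, 25 transcripts with 25 identifiers summed to 20.7 FPKM in SSCs against 44.6 in FGSCs. Their SSC values lay between 0.247 and 1.59 FPKM and their FGSC values between 0.906 and 2.82 FPKM, so the ranges overlapped, and 2 of the 25 were higher in SSCs. Its log2 difference of −1.09 became −0.29 with equal medians. At chr7:43151087-43243626, over Zfp936 and the lncRNA gene EU599041, 11 of 21 transcripts were higher in SSCs, and the sums were 26.8 FPKM in SSCs against 31.6 in FGSCs. At chr1:177983223-178172279, over Catspere2, a relative of a gene for a subunit of the sperm calcium channel, and 2 pseudogenes, all 18 transcripts were higher in FGSCs, with sums of 5.06 FPKM in SSCs against 31.4 in FGSCs. Zinc finger gene clusters and duplicated genes hold near-identical copies, so the share of reads given to each transcript there is uncertain.

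Of the remaining loci with the most transcripts, all were higher in FGSCs. The 17 transcripts over the coding genes C18orf63 and Cyb5a, the latter for cytochrome b5, at chr18:84759057-84880401 summed to 1.46 FPKM in SSCs against 18.6 in FGSCs. At chr5:9186307-9238831, over no gene and 24.5 kb from the transcription factor gene Dmtf1, 15 transcripts summed to 0.616 FPKM in SSCs against 8.02 in FGSCs, and at chr18:10882379-10928875, over no gene, 16 summed to 1.01 FPKM in SSCs against 7.17 in FGSCs. Each of the 17 and of the 15 was higher in FGSCs, and 15 of the 16. None of the transcripts at these 3 loci passed 1 FPKM in SSCs.

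Within a locus the transcripts mostly went the same way. All transcripts of a locus had the higher FPKM in the same cell type at 230 of the 319 loci (72.1%), at 58 in SSCs and at 172 in FGSCs. The 15 loci with 1 intergenic transcript are among the 230 by definition. Of the 277 loci with 4 or more intergenic transcripts, all transcripts went one way at 192 (69.3%), 47 in SSCs and 145 in FGSCs. Over all loci, one direction held for 48 of the 60 loci higher in SSCs (80%), for 160 of the 177 higher in FGSCs (90.4%) and for 22 of the 82 within 2-fold. These classes come from the sum of the same transcripts, so part of this split is built in. Over all pairs of transcripts within a locus 5690 of 6418 (88.7%) shared their direction, and among pairs with different gene identifiers 4778 of 5370 (89.0%) did. For scale, 69.9% of member transcripts and 64.0% of all transcripts were higher in FGSCs, which are shares of single transcripts and not of pairs. Loci with more transcripts give more pairs and so weigh more in the pair counts. Transcripts of one locus share reads and, in part, exons, and the estimation divides the reads among them, so their agreement is not that of independent measurements. Counting only transcripts past 2-fold, 229 loci had such transcripts in one direction alone.

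**Figure D4:**
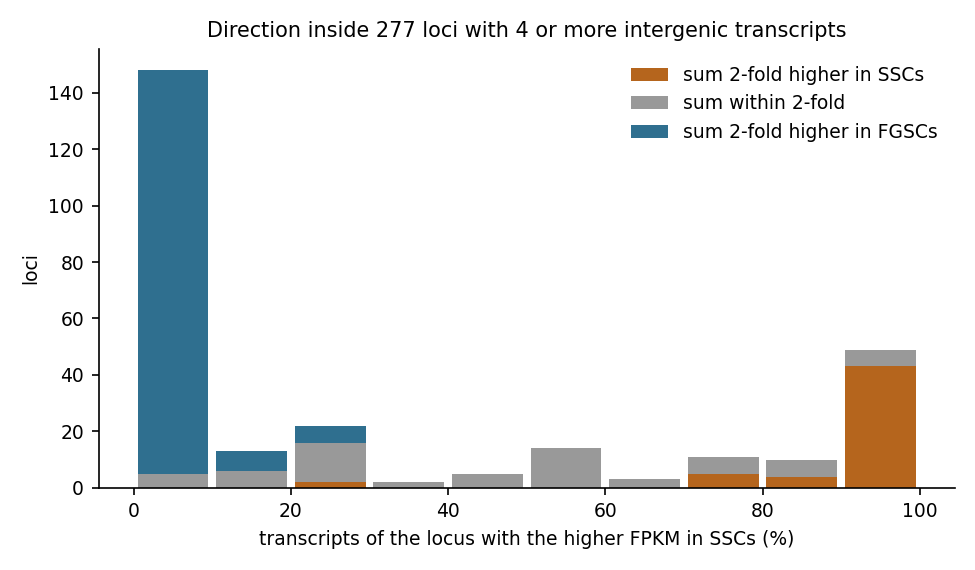
Number of loci (vertical axis) by the percent of their transcripts with the higher FPKM in SSCs (horizontal axis, bins of 10 percentage points) for the 277 loci with 4 or more intergenic transcripts, with bars divided by the direction of the locus sum. Loci pile up at either end, 43 of those higher in SSCs in the last bin and 143 of those higher in FGSCs in the first, and the middle holds loci within 2-fold.

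The loci of even split show what mixed directions looked like. At chr6:50906314-50922235 over Gm31579, 6 transcripts of 1 gene identifier had 4.72, 2.56, 1.46, 0.792, 0.170 and 0.112 FPKM in SSCs and, in the same order, 0.527, 2.73, 0.653, 0.194, 0.597 and 0.582 FPKM in FGSCs. The dominant isoform differed between the cell types, TCONS_00123654 holding 48.1% of the sum in SSCs and TCONS_00123653 holding 51.7% in FGSCs. Its log2 difference of 0.84 became 1.62 with equal medians. At chr1:60921224-60931782, 5.39 kb from Ctla4, the gene for an inhibitory receptor of T cells, 6 transcripts of 1 identifier split 3 to 3, with sums of 2.65 FPKM in SSCs against 2.98 in FGSCs and different dominant isoforms, TCONS_00001488 in SSCs and TCONS_00001485 in FGSCs. The other even splits, at the pseudogene Gm7240 on chromosome 13, over Zfand6 on chromosome 7 and along chr17:46441926-46890405, which spans Srf, Cul7, Cul9 and other coding genes, had 6 identifiers for 6 transcripts each. Their sums were 2.79, 9.11 and 5.25 FPKM in SSCs and, in the same order, 2.49, 8.85 and 4.37 FPKM in FGSCs.

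The difference nearest 0 was −0.01, at chr15:102176998-102215705 over Csad, a gene of taurine synthesis, and Zfp740. Its 4 transcripts had 3.34, 1.498, 1.36 and 1.23 FPKM in SSCs and, in the same order, 2.99, 1.41, 1.52 and 1.54 FPKM in FGSCs, so each differed little. The others nearest 0 were at 4921531P14Rik on chromosome 18 with 8.56 FPKM in SSCs against 8.61 in FGSCs, at the Mir344 miRNA cluster on chromosome 7 with 3.66 FPKM in SSCs against 3.75 in FGSCs, at Zfand6, and at Ppp2r5c, a gene for a regulatory subunit of protein phosphatase 2A, with 1.94 FPKM in SSCs against 2.07 in FGSCs. An even sum could hide opposite transcripts, since at 4921531P14Rik 5 of 9 were higher in SSCs and at Mir344 also 5 of 9.

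The dominant transcript, that with the highest FPKM of its locus, held a median of 35.3% of the sum in the cell type with the higher sum. Taken per cell type the median was 45.6% in SSCs and 36.3% in FGSCs. These medians include sums close to 0, where 1 transcript can hold nearly all. Of the loci higher in FGSCs, 88 summed to under 0.1 FPKM in SSCs, and of those higher in SSCs 14 did so in FGSCs. The 15 loci with 1 intergenic transcript, which holds the whole sum by definition, are in the median of 35.3%. Over loci with 4 or more it was 32.0%. The share declined with the number of transcripts, the medians being 40.4% for the 98 loci of 4 transcripts, 30.7% for 5 or 6, 21.3% for 7 to 9 and 15.99% for 10 or more. Among loci of 4 or more transcripts the dominant transcript held a median of 1.67 times its part in an equal division, from 1.06 to 7.48 times. Of the same loci 29 had a dominant share of 50% or more and 82 one of 25% or less. The same transcript was dominant in both cell types at 104 of the 270 loci above 0 in both, and at 49 of the 109 loci with at least 1 FPKM in both. Loci with 1 intergenic transcript count as the same here by definition. At most loci, then, the sum was spread over several transcripts. The leading transcript differed between the cell types at 60 of the 109 loci with at least 1 FPKM in both, not far from an even split. With 1 value per cell type, a change of leading transcript could not be tested. Without the dominant transcript of each locus, 51 of 304 loci were higher in SSCs and 163 in FGSCs.

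**Figure D5:**
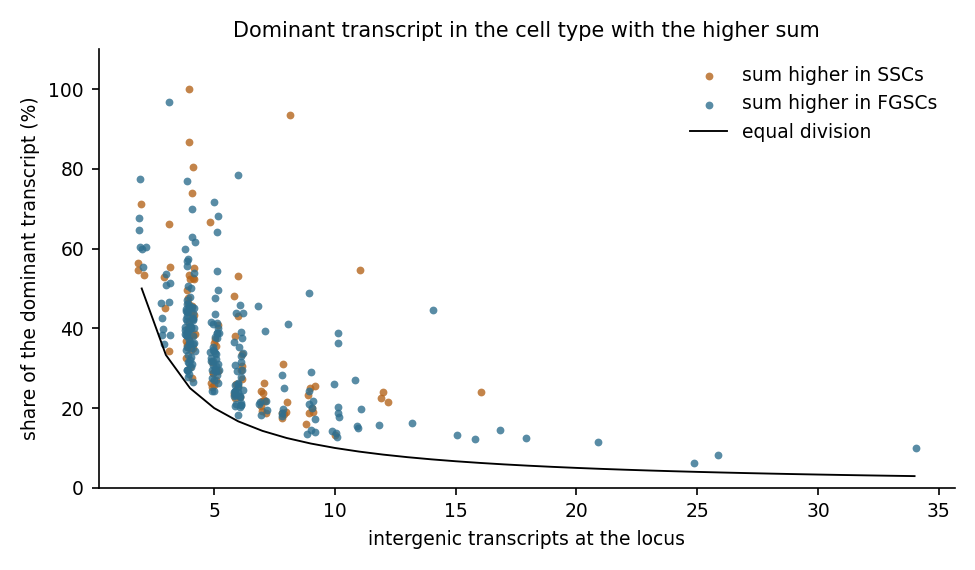
Percent of the summed FPKM held by the dominant transcript (vertical axis) against the number of intergenic transcripts at the locus (horizontal axis, points shifted slightly sideways), for loci with at least 2 of them, in the cell type with the higher sum. The curve marks an equal division, and most loci lie close above it, with a median of 1.67 times that share.

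A locus 11.1 kb from Pdgfra, the gene for a receptor of platelet-derived growth factor that marks stromal cells, had a single transcript that set the direction of the sum. At chr5:75110322-75141166, over the lncRNA gene Gm19583, 8 transcripts summed to 4.07 FPKM in SSCs against 3.17 in FGSCs. TCONS_00113733 had 3.81 FPKM in SSCs, 93.5% of the sum, and 0.253 FPKM in FGSCs. The other 7 were all lower in SSCs, at 0 to 0.0978 FPKM, and had 0.184 to 0.811 FPKM in FGSCs. The locus difference was 0.32 with that transcript and −2.16 without it. With equal medians it was 1.06.

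Loci near genes with a known role in the gonad were looked up from 13 lists with 148 genes, chosen with earlier results of these data known. Of the 148 genes 13 had a multi-transcript locus over them or within 100 kb, at 12 loci in all. None of the lists of shared germ cell, Sertoli, steroid-producing, endothelial and blood cell markers or of homeobox and T-box genes had one. Of the 12 loci 4 were higher in SSCs, 6 were higher in FGSCs and 2 were within 2-fold, beside 18.8% higher in SSCs and 55.5% higher in FGSCs over all 319 loci.

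The loci near genes on the lists of somatic cell markers went both ways. The only locus near a gene of the ovarian surface epithelium list, Lhx9, was higher in FGSCs and is described below. Of the 3 near granulosa cell genes that near Kitl was higher in SSCs and those near Fst and Amhr2 higher in FGSCs, and of the 3 near stromal genes that near Nr2f2 was higher in SSCs, that near Col1a2 higher in FGSCs and that near Pdgfra within 2-fold. At chr10:100129759-100139377, over Gm35533 and 29.3 kb from Kitl, which encodes the ligand of the Kit receptor and is made by somatic cells beside germ cells, 4 transcripts had 1.56, 1.07, 1.10 and 0.610 FPKM in SSCs and 0.0139, 0, 0 and 0.0133 FPKM in FGSCs, in the same order. At chr7:70268691-70285629, over Gm29683 and 66.3 kb from Nr2f2, a nuclear receptor gene of stromal cells, 5 transcripts summed to 3.64 FPKM in SSCs against 0.149 in FGSCs. All transcripts at both loci were higher in SSCs. The mRNAs of Kitl and Nr2f2 were not analysed here.

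The 7 transcripts at chr8:89027248-89057669 over Sall1, a gene for a zinc finger transcription factor, were all higher in SSCs, with sums of 5.12 FPKM in SSCs against 0.562 in FGSCs. In the imprinted cluster on chromosome 12, 11.3 kb from Rian and 45.7 kb from Mirg, a locus of 8 rows held 1 intergenic transcript, TCONS_00034287, with 0.928 FPKM in SSCs, and it was listed at 0 in FGSCs. With a pseudocount of 1 this locus lay within 2-fold.

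Toward FGSCs, the 8 transcripts at chr1:138689073-138782553, 42.6 kb from Lhx9, a homeobox gene needed to form the gonad, summed to 0.0394 FPKM in SSCs against 2.64 in FGSCs, with 7 listed at 0 in SSCs. The 3 at chr15:102350820-102366840, 78.5 kb from Amhr2, which encodes the receptor of anti-Müllerian hormone, summed to 0.246 FPKM in SSCs against 2.80 in FGSCs, and Rarg, the gene for a retinoic acid receptor, lay 93.3 kb from the same locus and 19.2 kb from the Csad locus described above. The loci near Pcdh8, a protocadherin gene, and Col1a2, a collagen gene, had 0.443 and 0.206 FPKM in SSCs and 2.11 and 1.18 FPKM in FGSCs, in the same order. Those near Fst, which encodes follistatin, and near the oocyte gene Oosp1 were just past 2-fold, at −1.01 and −1.04, with 0.927 and 0.131 FPKM in SSCs and 2.38 and 0.797 FPKM in FGSCs. The loci near Fst, Oosp1 and Col1a2 fell within 2-fold with equal medians, and that near Pcdh8 with quantile normalization.

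Neighbouring loci were compared, since a wide transcribed region can be cut into several loci. Of the 64 pairs of multi-transcript loci up to 1 Mb apart 44 (68.8%) had the same direction. Over all possible pairs of the 319 loci, 100 of which had the higher sum in SSCs and 219 in FGSCs, 56.8% did. The loci were spread over all autosomes, from 6 on chromosome 19 to 25 on chromosome 13. Loci higher in SSCs were found on every autosome except 4, 14 and 19, and on each autosome more loci were higher in FGSCs than in SSCs.

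The median GC content of the whole interval, introns included, was 43.4% for loci higher in SSCs, 41.5% for those higher in FGSCs and 43.8% for those within 2-fold, and the median share of masked repeats was 25.4%, 29.0% and 28.5% in the same order. Intergenic loci with 1 row had a median GC content of 44.5% and 21.3% masked repeats. The loci higher in SSCs had a median length of 29.6 kb and those higher in FGSCs of 23.8 kb.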

How the data were processed

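Per the submitters' processing notes and the methods of the study, the authors mapped the reads to mm10 with TopHat2, assembled transcripts with Cufflinks (and Scripture), filtered them for coding potential and quantified them with Cuffdiff 2.1.1. The deposited FPKM values are 1 per transcript and cell type, computed by the authors over the 3 libraries of each. The deposited table also holds the authors' own log2 fold changes, test statistics, p-values and q-values, which were not used. A linear model over libraries could not be fitted, since no values per library were used. Class u rows whose locus occurs in at least 4 rows of the table were taken on autosomes, FPKM was summed per locus, and differences are log2(SSC FPKM + 0.5) minus log2(FGSC FPKM + 0.5).

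Members and gene lists were chosen with earlier results of these data known. The loci named are the 10 with the most transcripts, the 5 with the largest difference in each direction, the 5 nearest 0, the 5 most evenly split and those within 100 kb of a listed gene. The sequences printed were chosen after their values were seen. Coordinates are 1-based, with 1 added to the starts in the table. Overlaps used GENCODE M21 and RefSeq on GRCm38.p6, the assembly behind mm10. Alternatives covered pseudocount, low-value filter, scaling, row limit and fold limit. Counting was tested on simulated data. The software was pandas 2.3.3 with SciPy 1.17.1, NumPy 2.4.6 and matplotlib 3.10.9 under Python 3.11.15.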

Additional observations from a re-analysis of the deposited data

How the results depend on the processing

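No paired analysis was possible because each cell type has 1 column of values, and leaving out replicates could not be run for the same reason. With equal medians the median locus difference was −0.86 and 386 member transcripts were higher in SSCs, and with quantile normalization that median was −0.76. A pseudocount of 0.1 gave a median locus difference of −1.86, with 369 transcripts (20.2%) higher in SSCs and 1047 (57.3%) in FGSCs, beside 25.4% and 47.6% of all transcripts. A pseudocount of 1 gave 68 transcripts (3.72%) in SSCs and 288 (15.8%) in FGSCs, beside 6.99% and 6.43% of all. With at least 1 FPKM required, 102 transcripts (18.6%) were higher in SSCs and 332 (60.5%) in FGSCs, beside 36.8% and 36.4% of all such transcripts. A limit of 4-fold left 31 loci and 29 transcripts in SSCs and 109 loci and 154 transcripts in FGSCs, beside 4.67% of all intergenic loci in SSCs and 3.24% in FGSCs. Requiring 5 rows left 211 loci, with 117 higher in FGSCs, 150 of one direction and a median dominant share of 28.9%. Requiring 3 rows gave 503 loci, with 271 higher in FGSCs, 379 of one direction and a dominant share of 40.6%. With 4 or more class u rows the dominant share was 32.0%. Further checks were added after seeing the data. Without loci over protein-coding genes 39 loci were higher in SSCs and the median difference was −1.68, with rows of every class summed the dominant share was 32.6%, and with equal summed FPKM no result moved. More loci were higher in FGSCs than in SSCs under each of these settings, and no named locus past 2-fold changed sign under another pseudocount or scaling. A transcript's reads are unknown, so differences among low values cannot be told from counting error.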
